A study of Homo sapiens with 18 samples.

Results

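The 10 genes described here encode ligands, receptors, signal carriers and targets of the transforming growth factor beta (TGF-beta) pathway: TGFB1, TGFB2, INHBA, LTBP1, TGFBR1, TGFBR2, SMAD3, SMAD7, SKIL and TGFBI. They were taken by name from a list of pathway genes that was chosen with earlier results of these data known. No threshold on a value was applied, and each name matched 1 of the 60252 gene IDs of the deposited count table. All 10 passed the filter on low counts that left 21326 genes for testing. RNA-seq was run on MCF-10A cells, a human breast epithelial line of basal character that is immortal but forms no tumours, and that grows into hollow spheres in Matrigel, a basement membrane extract. The cells carried a stably expressed retroviral construct with the coding sequence of 1 splicing factor (SRSF2-OE, SRSF4-OE, SRSF6-OE, SRSF9-OE or TRA2B-OE) or the empty PWZL vector (Control), and RNA was taken on day 8 of culture in Matrigel. The 4 SR proteins and TRA2B bind exons in pre-mRNA and influence which exons are kept, and the series was designed to find expression and splicing changes when each is overexpressed. The sources used here do not say whether a line was 1 clone or a pool of infected cells.

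The 18 samples came from 14 libraries, because replicates 1 and 2 of SRSF4-OE, SRSF6-OE, TRA2B-OE and Control carry 1 library ID and barcode each and differ only in sequencing lane. These lanes were summed, giving 1 lane-summed library and replicate 3 in each of those 4 groups, and 3 libraries each in SRSF2-OE and SRSF9-OE. Libraries held 42959069 to 121601376 counts. The lane-summed libraries are named by library IDs and the other 10 by numbers, so this label set was a term in the main fits. Some of the alternatives given below left it out. The SRSF2-OE and SRSF9-OE libraries all have numeric labels, so the label set difference was estimated from the other groups. No label states that the replicates were separate cultures, and p-values therefore rest on a spread among libraries that may be only technical. Levels are given as CPM, the share of a library's counts scaled to a fixed depth, on library sizes normalised by edgeR's TMM method. The introduced factor was above both Control libraries in every library of SRSF2-OE, SRSF4-OE, SRSF9-OE and TRA2B-OE. TRA2B was also above Control in all libraries of the other 4 overexpression groups, and in SRSF4-OE (158 and 168 CPM) above TRA2B-OE replicate 3 (147 CPM). SRSF2 was also above Control in SRSF4-OE, SRSF6-OE and TRA2B-OE, and SRSF2-OE replicate 1 (214 CPM) lay within or below their ranges. SRSF6 was at 417 CPM (lane-summed) and 283 CPM (replicate 3) in SRSF6-OE, against 400.0 and 239 CPM in Control, so its ranges overlapped. The basal epithelial markers KRT5 (7079 to 20010 CPM) and TP63 (113 to 255 CPM) were high in all libraries. Of the luminal markers, PGR did not pass 0.0197 CPM in any library, while ESR1 ranged from 0.129 to 2.54 CPM, FOXA1 from 0.444 to 1.46 CPM and GATA3 from 9.41 to 29.2 CPM. Of the fibroblast markers, COL1A2, COL3A1, PDGFRA and LUM stayed at or under 0.436 CPM. COL1A1 ranged from 44.05 to 277.6 CPM and DCN from 6.30 to 413 CPM. Of the endothelial and leukocyte markers, VWF, CDH5, PTPRC and CD3E stayed at or under 0.184 CPM, CD68 reached 1.22 CPM and KDR ranged from 2.24 to 26.2 CPM. No value is given for PECAM1, a further endothelial marker. These are bulk libraries, in which fewer cells making an RNA and less of it per cell cannot be told apart.

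As background, TGF-beta ligands are secreted in a latent complex with binding proteins of the LTBP family and must be released before they act. The active dimer brings a type II receptor (TGFBR2) and a type I receptor (TGFBR1) together, and the type I kinase phosphorylates SMAD2 and SMAD3, which enter the nucleus with SMAD4. Activins, which are dimers of inhibin beta chains such as that of INHBA, use their own receptors to reach the same SMADs. The signal induces its own inhibitors, among them SMAD7, which acts at the receptor, and SKIL (SnoN), a nuclear co-repressor. In mammary epithelium the pathway is known for halting growth and for promoting a mesenchymal, matrix-producing state.

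Per exon length the 10 genes differed widely. TGFBI, a secreted matrix protein named for its induction by TGF-beta, had a median level of 952 RPKM over the 14 libraries (499 to 1461 RPKM). LTBP1 followed at 51.7 RPKM, TGFBR2 at 42.6 RPKM, TGFB1 at 26.0 RPKM, INHBA at 10.2 RPKM and TGFBR1 at 9.64 RPKM. SMAD3 had a median of 7.98 RPKM, SKIL 3.88 RPKM, SMAD7 2.83 RPKM and TGFB2 0.137 RPKM. The ranges over libraries were the widest for INHBA, whose highest library was 288 times its lowest in CPM, and for TGFB2 at 161 times. Their standard deviations of log2 CPM over the 14 libraries stood at the 99.4th and 99.1st percentiles of all genes tested. LTBP1 spanned 7.74 times (81.4th percentile), and each of the other 7 spanned 1.85 to 3.09 times, with SMAD3 the narrowest (21.9th percentile).

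The 250 bases before the annotated start of TGFB2 and INHBA, the 2 most variable members, and of TGFBI, the member lower in the most comparisons, are shown from RefSeq (GRCh38.p14), 5′ to 3′ on the gene's strand. Capitals mark CAGAC, the SMAD box, or GGAATG, the core of sites bound by TEAD factors, on either strand, which do not overlap each other here.
TGFB2 (chr1:218345086-218345335, plus strand): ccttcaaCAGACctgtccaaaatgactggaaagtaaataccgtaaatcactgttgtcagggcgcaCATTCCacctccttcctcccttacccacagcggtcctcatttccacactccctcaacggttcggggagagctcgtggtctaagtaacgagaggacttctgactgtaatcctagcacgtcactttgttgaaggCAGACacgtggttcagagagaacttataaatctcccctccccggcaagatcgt
INHBA (chr7:41703091-41703340, minus strand): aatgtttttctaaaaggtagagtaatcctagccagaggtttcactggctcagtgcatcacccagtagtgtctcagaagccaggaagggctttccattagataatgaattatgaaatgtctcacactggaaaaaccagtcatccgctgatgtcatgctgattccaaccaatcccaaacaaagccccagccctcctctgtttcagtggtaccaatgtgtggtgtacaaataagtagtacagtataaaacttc
TGFBI (chr5:136028738-136028987, plus strand): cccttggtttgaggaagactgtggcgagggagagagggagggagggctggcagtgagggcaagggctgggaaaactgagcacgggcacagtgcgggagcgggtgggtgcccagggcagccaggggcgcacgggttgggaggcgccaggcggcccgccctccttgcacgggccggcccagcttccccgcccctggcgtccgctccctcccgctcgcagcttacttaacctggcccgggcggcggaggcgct
The TGFB2 window held 2 CAGAC and 1 GGAATG, and the windows of INHBA and TGFBI held neither. CAGAC occurred on either strand in 13 of the 26 such windows of the 10 genes and in 38% of the 35116 windows of all genes. TGFBR1 supplied 8 of the 26 and SMAD3 5, and some windows of the same gene overlap, so the 26 are not separate units. GGAATG was found in 2 of the 26 and in 11.9% of all windows. TGANTCA, the AP-1 site, was found in 1 of the 26, a window of SMAD3, and in 6.57% of all windows. These matches describe letters in the window and no factor's binding was measured.

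Among the ligands, TGFB1 was higher in every overexpression library than in either Control library. TGFB1, the main TGF-beta of most tissues, had 104, 152 and 71.5 CPM in SRSF2-OE, 77.4 and 79.0 CPM in SRSF4-OE and 91.0 and 137 CPM in SRSF6-OE. It had 76.3, 87.1 and 126 CPM in SRSF9-OE, 81.5 and 94.2 CPM in TRA2B-OE, and 52.4 and 68.8 CPM in Control, each pair giving the lane-summed library and then replicate 3. No overexpression library overlapped Control, and SRSF2-OE replicate 3 was the closest to Control replicate 3. TGFB1 was the only member with all 12 overexpression libraries above both Control libraries, a pattern shared by 919 of the 21326 genes tested (4.31%). The fitted log2 fold changes against Control were 0.71 ± 0.33 (SE) in SRSF2-OE, 0.39 ± 0.33 in SRSF4-OE, 0.90 ± 0.33 in SRSF6-OE, 0.53 ± 0.32 in SRSF9-OE and 0.54 ± 0.33 in TRA2B-OE. None passed the threshold of 0.05 in edgeR's quasi-likelihood test (adjusted p = 0.206 to 0.87), or in DESeq2, whose lowest adjusted p was 0.0943 in SRSF6-OE. The group means ran from 114 CPM in SRSF6-OE through SRSF2-OE, SRSF9-OE, TRA2B-OE and SRSF4-OE to 60.6 CPM in Control. Neighbours in that order overlapped except TRA2B-OE with SRSF4-OE and SRSF4-OE with Control. In GENCODE 29, 215 of the 3238 exon bases of TGFB1 lie opposite exons of HNRNPUL1, and the sources used here do not say if counting used strand.

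TGFB2, a second TGF-beta ligand, was low in most libraries and high in 1. It had 28.9 CPM in the lane-summed TRA2B-OE library and 0.315 CPM in TRA2B-OE replicate 3, against 1.16 and 0.314 CPM in Control. In counts, these were 2845 and 16 in TRA2B-OE, against 151 and 16 in Control. The TRA2B-OE difference thus lay in the lane-summed library alone: the log2 ratio to Control was 4.64 between the lane-summed libraries and 0.0057 between the replicate 3 libraries. TGFB2 had 7.47 and 1.68 CPM in SRSF6-OE and 3.59 and 2.02 CPM in SRSF4-OE, and these 4 libraries were above both Control libraries. It had 0.603, 0.811 and 0.517 CPM in SRSF2-OE and 0.396, 0.179 and 0.479 CPM in SRSF9-OE, 9 to 38 counts per library. In every group with a lane-summed library, that library had more TGFB2 than replicate 3, so the label set moved with the level. The fitted log2 fold change was 3.45 ± 1.11 in TRA2B-OE, 2.59 ± 1.02 in SRSF6-OE, 2.39 ± 1.03 in SRSF4-OE, 1.40 ± 1.03 in SRSF2-OE and 0.52 ± 1.04 in SRSF9-OE. The positive values for SRSF2-OE and SRSF9-OE stand beside group means of 0.644 and 0.351 CPM, below the Control mean of 0.734 CPM, and without the label set term they were -0.23 and -1.10. edgeR called none of the 5 (adjusted p = 0.223 to 0.939), and DESeq2 called TGFB2 higher in TRA2B-OE (log2 fold change 3.41, adjusted p = 0.0155). Over all alternatives tried the adjusted p for TRA2B-OE ran from 0.00631 to 1, and without the lane-summed TRA2B-OE library the value was -0.13. The order of group means was TRA2B-OE, SRSF6-OE, SRSF4-OE, Control, SRSF2-OE and SRSF9-OE, and only SRSF4-OE with Control and SRSF2-OE with SRSF9-OE did not overlap as neighbours. Of the 5151 exon bases of TGFB2, 1371 are shared on the same strand with TGFB2-OT1, so reads of the 2 could not be told apart there.

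INHBA, the activin A chain, was split within SRSF2-OE and TRA2B-OE and above Control in the other 3 groups. It had 93.6 and 596 CPM in SRSF6-OE and 85.4 and 89.1 CPM in SRSF4-OE, against 29.7 and 21.7 CPM in Control. It had 31.0, 83.9 and 112 CPM in SRSF9-OE, and all libraries of these 3 overexpression groups were above Control. SRSF2-OE libraries had 5.65, 146 and 7.67 CPM, and TRA2B-OE libraries 91.4 and 2.07 CPM, so in both groups 1 library was above Control and the rest below it. The fitted log2 fold change was 3.92 ± 1.93 in SRSF6-OE, 1.80 ± 1.70 in SRSF4-OE, 1.78 ± 1.78 in SRSF9-OE, 1.27 ± 1.75 in SRSF2-OE and 0.69 ± 1.80 in TRA2B-OE. No value passed in edgeR (adjusted p = 0.284 to 0.917) or DESeq2 (lowest adjusted p = 0.124, SRSF6-OE). Without SRSF2-OE replicate 2 the SRSF2-OE value was -1.73, and without the lane-summed TRA2B-OE library the TRA2B-OE value was -4.06. Group means ran from 345 CPM in SRSF6-OE through SRSF4-OE, SRSF9-OE, SRSF2-OE and TRA2B-OE to 25.7 CPM in Control, and only SRSF6-OE and SRSF4-OE did not overlap as neighbours. The libraries with the lowest INHBA, TRA2B-OE replicate 3 and SRSF2-OE replicates 1 and 3, had 14.3%, 16.4% and 11% of their counts on mitochondrial genes, against 6.45% to 12% in the other 11. The part of that share in the INHBA levels was not tested.

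**Figure D1:**
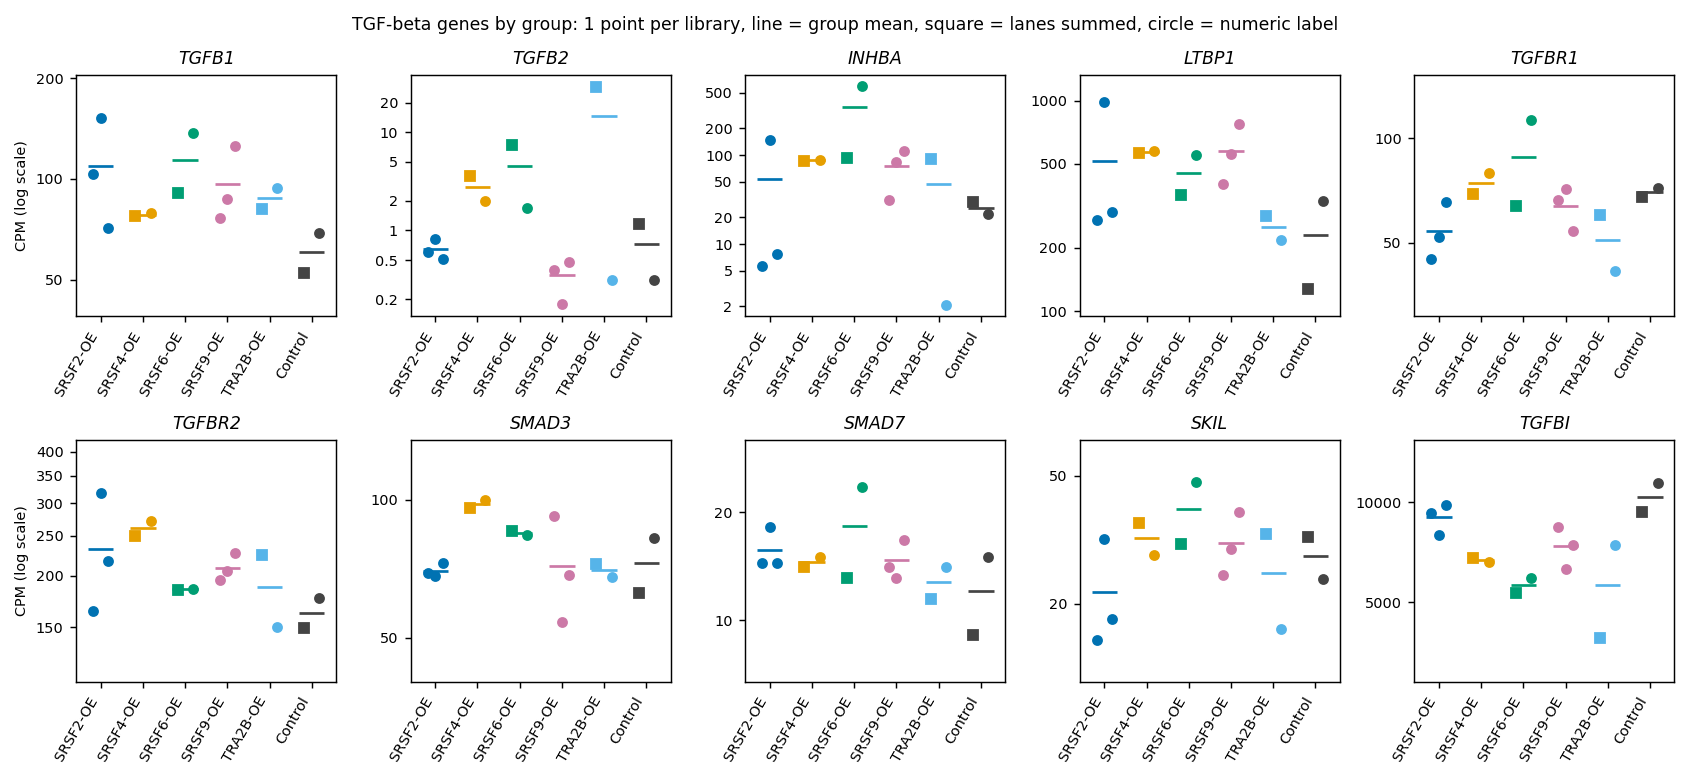
CPM of each of the 10 genes on a log axis, 1 point per library, with overexpression groups to the left of Control; squares are lane-summed libraries, circles numeric-labelled ones and horizontal lines group means. TGFB1 lies above both Control libraries in all 12 overexpression libraries, TGFBI lies below them in 11 of 12, and TGFB2 and INHBA are split within groups.

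LTBP1, which binds latent TGF-beta and anchors it in the matrix, lay above Control in every library of 3 groups. It had 561 and 577 CPM in SRSF4-OE, 357 and 552 CPM in SRSF6-OE and 401, 559 and 770.4 CPM in SRSF9-OE, against 127 and 334 CPM in Control. No value of these groups overlapped Control. SRSF2-OE had 272, 985 and 297 CPM and TRA2B-OE 284 and 217 CPM, all between the Control libraries except SRSF2-OE replicate 2. The fitted log2 fold changes were 1.40 ± 0.63 in SRSF4-OE, 1.2 ± 0.60 in SRSF9-OE, 1.04 ± 0.60 in SRSF2-OE, 1.03 ± 0.62 in SRSF6-OE and 0.24 ± 0.63 in TRA2B-OE. None passed in edgeR (adjusted p = 0.336 to 0.917) or DESeq2 (lowest 0.183). Within label sets, the TRA2B-OE log2 ratio was 1.16 between lane-summed libraries and -0.62 between replicate 3 libraries. Neighbours in the order SRSF9-OE, SRSF4-OE, SRSF2-OE, SRSF6-OE, TRA2B-OE and Control overlapped, except SRSF6-OE with TRA2B-OE. An antisense gene, AC019127.1, lies opposite 249 of its 7329 exon bases.

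The 2 receptors differed from Control by less than 1 log2 unit in all 5 comparisons, and not always to the same side. TGFBR1, the type I receptor kinase, had 44.8, 52.0 and 65.6 CPM in SRSF2-OE and 60.2 and 41.4 CPM in TRA2B-OE, against 67.9 and 71.9 CPM in Control, and both groups lay below Control. It had 69.2 and 79.3 CPM in SRSF4-OE, 64.0 and 113 CPM in SRSF6-OE and 66.4, 71.3 and 54.0 CPM in SRSF9-OE, all overlapping Control. The log2 fold change was -0.44 ± 0.28 in SRSF2-OE and -0.44 ± 0.29 in TRA2B-OE, and between -0.20 and 0.32 in the other 3. TGFBR1 passed in no comparison in edgeR (lowest adjusted p = 0.512) or DESeq2. Group means ran from 88.5 CPM in SRSF6-OE to 50.8 CPM in TRA2B-OE, and all neighbours in the order overlapped.

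TGFBR2, the type II receptor that binds the ligand, had 249 and 272 CPM in SRSF4-OE, 185 and 186 CPM in SRSF6-OE and 196, 205 and 227 CPM in SRSF9-OE, against 149 and 176 CPM in Control. These 3 groups lay above Control. It had 164, 317 and 217 CPM in SRSF2-OE and 225 and 150 CPM in TRA2B-OE, which overlapped Control. The largest fitted log2 fold change was 0.68 ± 0.29 in SRSF4-OE (edgeR adjusted p = 0.314, DESeq2 0.228), followed by 0.54 ± 0.28 in SRSF2-OE and 0.39 ± 0.28 in SRSF9-OE. SRSF6-OE had 0.19 ± 0.29 and TRA2B-OE 0.20 ± 0.29, and no comparison passed in either tool. In the order SRSF4-OE, SRSF2-OE, SRSF9-OE, TRA2B-OE, SRSF6-OE and Control, only the last 2 did not overlap.

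SMAD3, the receptor-activated SMAD of the pathway, was the steadiest of the 10. It had 95.7 and 99.96 CPM in SRSF4-OE and 85.4 and 83.9 CPM in SRSF6-OE, against 62.8 and 82.6 CPM in Control, and neither group overlapped Control. SRSF2-OE had 69.2, 68.0 and 72.9 CPM, SRSF9-OE 92.2, 54.2 and 68.4 CPM, and TRA2B-OE 72.6 and 68.0 CPM, all overlapping Control. The log2 fold change was 0.43 ± 0.22 in SRSF4-OE, 0.23 ± 0.22 in SRSF6-OE and between -0.09 and -0.04 in the others (edgeR adjusted p = 0.377 to 0.97). In the order SRSF4-OE, SRSF6-OE, Control, SRSF9-OE, TRA2B-OE and SRSF2-OE, only the first pair and SRSF6-OE with Control did not overlap. Antisense AC087482.1 lies opposite 182 of its 9113 exon bases.

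The 2 inhibitors overlapped Control in all 5 groups. SMAD7 had 13.2 and 23.6 CPM in SRSF6-OE, against 9.10 and 15.0 CPM in Control, and 11.4 to 18.2 CPM in the other 10 overexpression libraries. Its largest log2 fold change was 0.60 ± 0.23 in SRSF6-OE (edgeR adjusted p = 0.217, DESeq2 0.107), and the other 4 lay between 0.08 and 0.32. In replicate 3 libraries only, the SRSF4-OE log2 ratio was 0.0035 and the TRA2B-OE one -0.09. SKIL had 30.7 and 47.9 CPM in SRSF6-OE, 35.6 and 28.5 CPM in SRSF4-OE and 24.7, 29.7 and 38.5 CPM in SRSF9-OE, against 32.3 and 23.9 CPM in Control. It had 15.5, 31.8 and 18 CPM in SRSF2-OE and 33.0 and 16.7 CPM in TRA2B-OE. Its 3 lowest libraries, SRSF2-OE replicates 1 and 3 and TRA2B-OE replicate 3, were also the 3 lowest of INHBA. SKIL log2 fold changes lay between -0.22 and 0.53, with standard errors of 0.40 to 0.41 and edgeR adjusted p of 0.464 to 0.91. Without SRSF6-OE replicate 3, the SRSF6-OE value of 0.53 for SKIL became -0.14 and that of 0.32 for TGFBR1 became -0.17. All neighbours in the order of SKIL group means overlapped. Of SMAD7, both SRSF4-OE and TRA2B-OE reached 14.1 CPM at the edges of their ranges, and all other neighbours overlapped.

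TGFBI was the only member with a negative fitted log2 fold change in all 5 comparisons. It had 5323 and 5926 CPM in SRSF6-OE, 3899 and 7420 CPM in TRA2B-OE and 6804 and 6595 CPM in SRSF4-OE, against 9360 and 11410 CPM in Control. It had 8455, 6314 and 7449 CPM in SRSF9-OE and 9256, 7990 and 9839 CPM in SRSF2-OE. Of the 12 overexpression libraries, 11 were below both Control libraries, and SRSF2-OE replicate 3 fell between them. The log2 fold change was -0.91 ± 0.28 in TRA2B-OE, -0.88 ± 0.28 in SRSF6-OE, -0.65 ± 0.27 in SRSF9-OE, -0.61 ± 0.28 in SRSF4-OE and -0.36 ± 0.27 in SRSF2-OE. In edgeR the adjusted p-values were 0.276 in TRA2B-OE and 0.181 in SRSF6-OE, and 0.341 to 0.87 in the others. DESeq2 called TGFBI lower in SRSF6-OE (log2 fold change -0.85, adjusted p = 0.0275) and TRA2B-OE (-0.91, adjusted p = 0.0316). Over all alternatives, TGFBI adjusted p ran from 0.0122 to 0.727 in SRSF6-OE and from 0.0061 to 0.842 in TRA2B-OE, and the log2 fold change stayed between -0.996 and -0.759 in SRSF6-OE and between -1.35 and -0.52 in TRA2B-OE. Within label sets, the TRA2B-OE log2 ratio was -1.26 between lane-summed libraries and -0.62 between replicate 3 libraries, and that of SRSF6-OE was -0.81 and -0.95. Group means were lowest in SRSF6-OE (5625 CPM), followed by TRA2B-OE, SRSF4-OE, SRSF9-OE and SRSF2-OE, and highest in Control (10380 CPM), and all neighbours in that order overlapped.

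**Figure D2:**
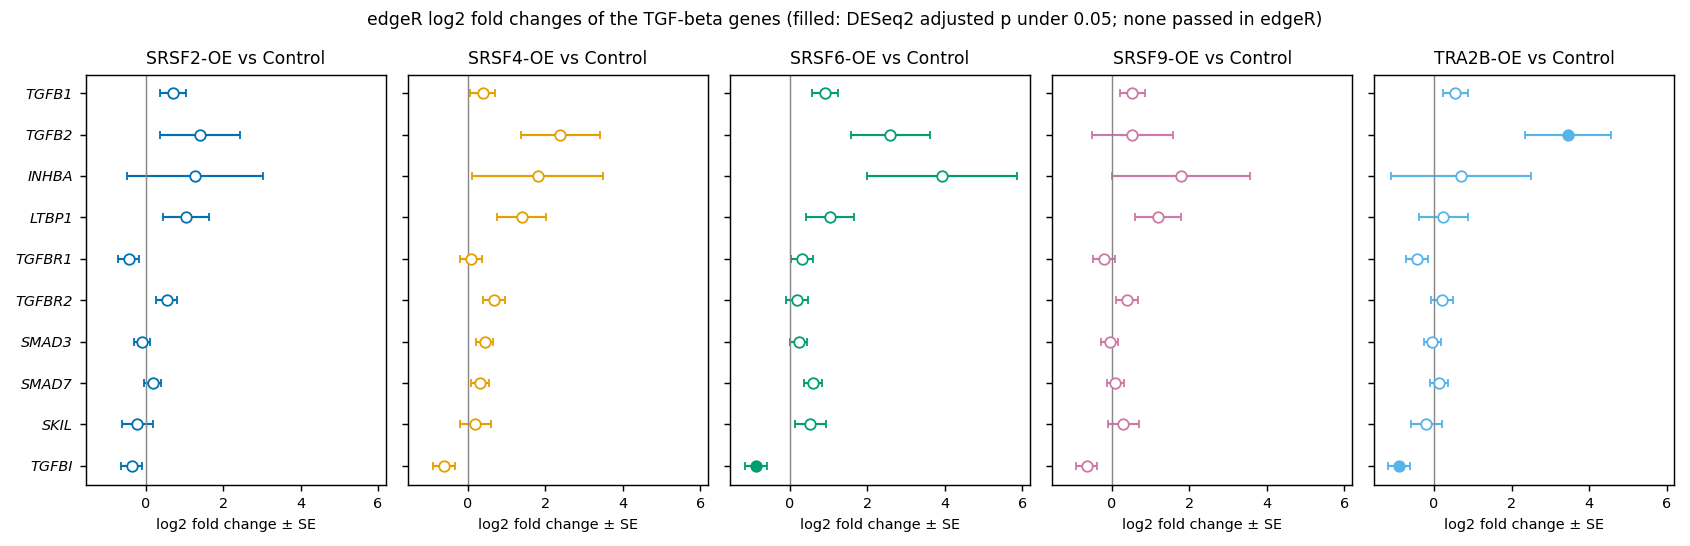
Fitted log2 fold change against Control (x axis) of each gene (rows) in the 5 comparisons (panels), with bars of 1 SE; filled points had a DESeq2 adjusted p under 0.05. The filled points are TGFB2 in TRA2B-OE and TGFBI in SRSF6-OE and TRA2B-OE, and TGFBI is left of 0 in all 5 panels.

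Counted over the 10 genes, edgeR called none in any comparison. The 5 comparisons share the same 2 Control libraries, so their values are not independent of each other. The members were chosen with earlier results of these data known. Their counts and medians beside those of all genes are therefore description and no test. In SRSF6-OE against Control, 9 members had a positive log2 fold change and 1 a negative one, with a median of 0.57, beside a median of -0.03 over all genes tested. edgeR called 0.00469% of all genes there. DESeq2 called 7.04% of the 17591 genes to which it gave an adjusted p, and 1 member, TGFBI. All DESeq2 shares below are of genes with a DESeq2 adjusted p, from 17177 to 21312 by comparison, and not of all genes tested. At an unadjusted p under 0.05 in edgeR, 4 members passed (TGFB1, TGFB2, SMAD7 and TGFBI), beside 19.5% of all genes. In that group 6 members had every library above Control, beside 22.8% of all genes, and 1 every library below it, beside 24.4%.

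In SRSF4-OE, 9 members were above and 1 below Control by fitted log2 fold change, with a median of 0.41 beside -0.04 over all genes. edgeR called 0% of all genes and no member, and DESeq2 3.05% of genes with an adjusted p and no member. At an unadjusted p under 0.05, edgeR passed 2 members (TGFB2 and TGFBR2), beside 14.9% of all genes. All libraries were above Control for 6 members, beside 25.3% of all genes, and below it for 1, beside 27.2%.

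In TRA2B-OE, 6 members were above and 4 below Control, with a median of 0.16 beside -0.00065 over all genes. edgeR called 0.00938% of all genes and no member. DESeq2 called 2.30% of genes with an adjusted p and 2 members, TGFB2 higher and TGFBI lower. At an unadjusted p under 0.05, edgeR passed the same 2 members, beside 12.0% of all genes. All libraries were above Control for 1 member (TGFB1), beside 18.3% of all genes, and below it for 2 (TGFBR1 and TGFBI), beside 18.2%.

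In SRSF2-OE, 6 members were above and 4 below, with a median of 0.36 beside 0.04 over all genes, and no member passed in edgeR (0% of all genes), in DESeq2 (2.95%) or at an unadjusted p under 0.05 in edgeR (13.4%). Every library was above Control for 1 member (16.7% of all genes) and below it for 1 (17.5%). In SRSF9-OE, 7 members were above and 3 below, with a median of 0.34 beside 0.00175 over all genes. No member passed in edgeR (0%) or DESeq2 (0.0704%), 1 member, TGFBI, had an unadjusted p under 0.05 in edgeR (4.47%), 4 had every library above Control (16.5%) and 1 every library below it (17.6%). In the F test over the 6 groups, edgeR called 0.0422% of all genes and no member, the lowest adjusted p being 0.367 for TGFBI. In the likelihood ratio test DESeq2 called 8.04% of the 19658 genes with an adjusted p and TGFBI alone of the members (adjusted p = 0.0406). limma-voom called no member in any comparison.

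Across libraries, the members did not keep 1 profile. SRSF6-OE replicate 3 was the highest of the 14 libraries for 4 members (INHBA, TGFBR1, SMAD7 and SKIL), and SRSF2-OE replicate 2 for 3 (TGFB1, LTBP1 and TGFBR2). The lane-summed Control library was the lowest for 4 (TGFB1, LTBP1, TGFBR2 and SMAD7). TRA2B-OE replicate 3 was among the 3 lowest libraries for 7 members and SRSF2-OE replicate 1 for 5. These 2 libraries also had the 2 highest mitochondrial shares of counts, 14.3% and 16.4%, and their part in the member levels was not tested. Without them, edgeR still called no member in any comparison, and the log2 fold changes that changed sign were TGFB2 in SRSF9-OE (-0.01) and SMAD3 (0.07) and SKIL (0.20) in TRA2B-OE.

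**Figure D3:**
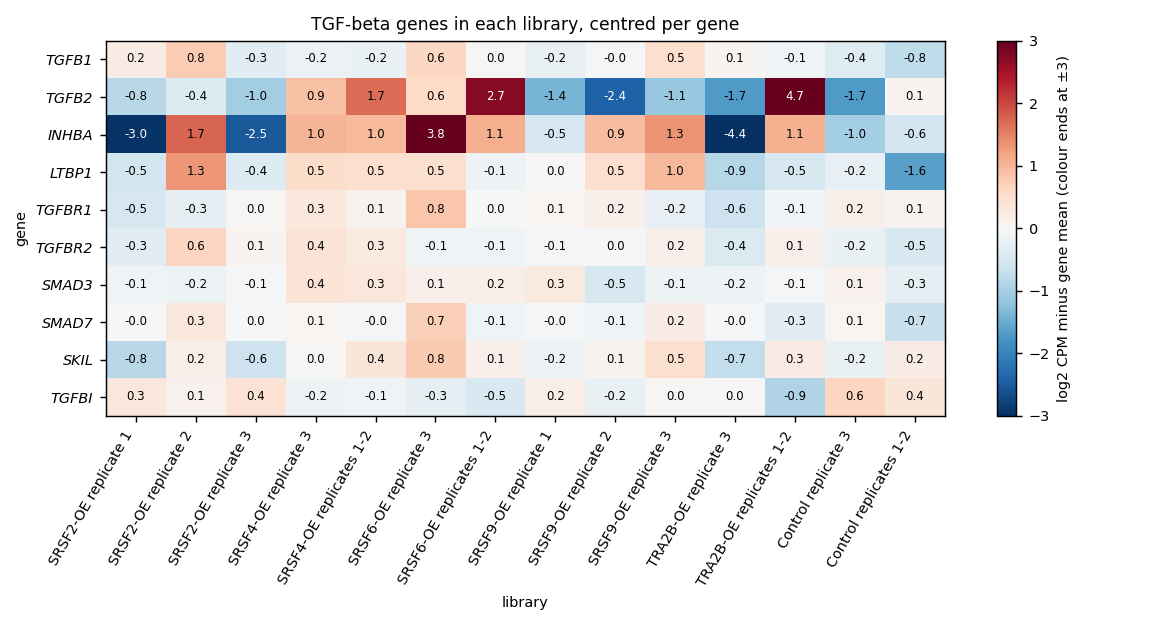
log2 CPM of the 10 genes (rows) in the 14 libraries (columns), minus each gene's mean over the libraries; the colour scale ends at 3 units from the mean and the number in each cell is the value to 1 decimal. TGFB2 and INHBA hold the strongest colours, SRSF6-OE replicate 3 is high in several genes, and TGFBI is highest in Control replicate 3.

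The genes whose centred log2 CPM followed each member most closely were sought among 12714 genes with a mean of at least 3 CPM. The measure was the root mean square difference over the 14 libraries. These libraries differ in depth and label set, and the part of either in the likeness was not tested. TGFB1 was nearest to CLPP (0.09) and TNRC18 (0.09), beside its own standard deviation of 0.42. TGFBI was nearest to MCC (0.18) and BLVRB (0.19), LTBP1 to TPBG (0.20) and C16orf74 (0.22), and SKIL to HSPA13 (0.13) and CSGALNACT2 (0.14). The receptors TGFBR1 and TGFBR2 had RALA (0.13) and PAM (0.14), and ENTPD6 (0.12) and PMPCA (0.13), as nearest genes. SMAD3 had MOB3C (0.14) and TRAF2 (0.17), and SMAD7 had KDELR1 (0.12) and CAPN1 (0.12). The 2 variable members had no near match: INHBA differed from IRAK2 by 0.64 and from PLAU by 0.68, and TGFB2 from S1PR3 by 0.95 and from CXCL1 by 0.95. No member was among the nearest genes of another.

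Of 65 further pathway genes listed by role, 62 were tested, and BMP7, LRRC32 and CDKN2B were not. edgeR called none of the 62 in any comparison. DESeq2 called 2 higher and 3 lower in SRSF2-OE (beside 2.95% of genes with an adjusted p) and 1 higher in SRSF4-OE (3.05%). It called 3 higher and 2 lower in SRSF6-OE (7.04%), none in SRSF9-OE (0.0704%), and 2 higher and 1 lower in TRA2B-OE (2.30%). At an unadjusted p under 0.05, edgeR passed 14 of the 62 in SRSF2-OE (beside 13.4% of all genes), 12 in SRSF4-OE (14.9%), 16 in SRSF6-OE (19.5%), 6 in SRSF9-OE (4.47%) and 14 in TRA2B-OE (12.0%). In the likelihood ratio test over the 6 groups DESeq2 called 10 of the 62, beside 8.04% of genes with an adjusted p. The edgeR F test called 0 (beside 0.0422% of all genes), with 14 at an unadjusted p under 0.05. In that test TGFBI, at an unadjusted p of 0.0514, ranked 2982 among the 21326 genes tested, so fewer than 2982 were under 0.05. Of the 10 called by the likelihood ratio test, SMAD6 (adjusted p = 0.000484), FSTL3 (0.00815), ITGB8 (0.027) and ID3 (0.0278) were called by DESeq2 in no comparison with Control. The median log2 fold changes of the 62 were 0.15 in SRSF2-OE, 0.06 in SRSF4-OE, 0.30 in SRSF6-OE, 0.11 in SRSF9-OE and -0.05 in TRA2B-OE. In the same order, 4, 2, 4, 3 and 2 of the 7 ligands had fitted values above Control. For genes of latency and extracellular control these counts were 6, 6, 9, 6 and 6 of 10. For SMAD and intracellular genes they were 4, 6, 6, 5 and 4 of 13. The list was written with earlier results of these data known, so counts by role are description and no test.

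In each role the 2 genes with the highest mean CPM, which is not adjusted for length, are named, and all that DESeq2 called in a comparison with Control. Among the other ligands these were BMP2 and GDF15, at 14 and 6.61 CPM on average, and neither passed in any comparison. BMP4, a ligand of the bone morphogenetic protein branch, was called lower in SRSF6-OE by DESeq2 (log2 fold change -2.21 ± 0.50 in edgeR, DESeq2 adjusted p = 0.00436). It had 0.430 and 0.172 CPM in SRSF6-OE, against 1.41 and 1.51 CPM in Control, and the other 10 overexpression libraries, at 0.448 to 0.989 CPM, were also below Control. All 12 overexpression libraries lay below both Control libraries in 825 of the 21326 genes tested. Among genes of latency and extracellular control, THBS1 (thrombospondin, an activator of latent TGF-beta) and the integrin chain ITGAV had the highest CPM. THBS1 had 475 and 949 CPM in SRSF4-OE, against 16.3 and 146 CPM in Control (log2 fold change 3.32 ± 1.10, DESeq2 adjusted p = 0.0156, edgeR 0.255). FST (follistatin, which binds activin) had 6.52 and 16.1 CPM in SRSF6-OE, against 0.252 and 0.903 CPM in Control (4.34 ± 1.44, DESeq2 adjusted p = 0.0373, edgeR 0.185).

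Of the 9 other receptors, 7 were below Control by fitted value in SRSF2-OE, SRSF4-OE and TRA2B-OE each, 6 in SRSF6-OE and 5 in SRSF9-OE, with medians of -0.50, -0.28, -0.41, -0.12 and -0.20. In the same order, 10015, 11333, 10678, 11119 and 10617 of all 21326 genes tested were below Control. ACVR2B, an activin type II receptor, had 6.35, 7.04 and 6.34 CPM in SRSF2-OE and 5.86 and 6.30 CPM in TRA2B-OE, against 11.7 and 11.7 CPM in Control. DESeq2 called it lower in both (log2 fold changes -0.87 ± 0.19 and -0.94 ± 0.20, DESeq2 adjusted p = 0.00177 and 0.0006), and edgeR did not (adjusted p = 0.171 and 0.155). BMPR1A, a type I receptor for BMPs, was called lower by DESeq2 in SRSF2-OE, with 24.2, 23.5 and 25.7 CPM against 38.4 and 33.2 CPM in Control (-0.50 ± 0.14, adjusted p = 0.0446). The other receptors with the highest CPM, BMPR2 and TGFBR3 (betaglycan, which presents TGF-beta to its receptors), passed in no comparison. TGFBR3 had 29.1 to 68.0 CPM in the 12 overexpression libraries, against 120.1 and 67.1 CPM in Control, and SRSF2-OE replicate 3 alone was above a Control library.

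Of the 13 other SMAD and intracellular genes, SMAD5, a BMP-branch SMAD, was below both Control libraries in all 12 overexpression libraries (85.7 to 127 CPM, against 164 and 128 CPM in Control). That pattern was shared by 825 of the 21326 genes tested. DESeq2 called SMAD5 lower in SRSF2-OE (-0.51 ± 0.14, adjusted p = 0.0388). SKI, a co-repressor related to SKIL, passed in no comparison, with log2 fold changes of 0.16 to 0.38.

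Of the 23 other targets tested, the fitted value was above Control for 21 in SRSF2-OE, 17 in SRSF4-OE, 18 in SRSF6-OE and 16 each in SRSF9-OE and TRA2B-OE, with medians of 0.54, 0.43, 0.33, 0.34 and 0.25. In the same order, 11311, 9993, 10207, 10709 and 10648 of all 21326 genes tested were above Control. TIMP1, an inhibitor of matrix metalloproteinases, had 390, 344 and 209 CPM in SRSF2-OE and 465 and 367 CPM in TRA2B-OE, against 63.9 and 119 CPM in Control. DESeq2 called it higher in both (log2 fold changes 1.75 ± 0.35 and 2.20 ± 0.37, DESeq2 adjusted p = 0.000994 and 1e-05), and edgeR in neither (adjusted p = 0.155 and 0.0906). The other 7 overexpression libraries had 164 to 235 CPM of TIMP1, all above Control. All 12 overexpression libraries lay above both Control libraries in 4.31% of the genes tested. ID1, best known as a target of the BMP branch, was called higher by DESeq2 in SRSF2-OE, at 184, 466 and 244 CPM against 67.6 and 78.1 CPM in Control (1.75 ± 0.53, adjusted p = 0.0295). In SRSF6-OE, DESeq2 called FN1 (fibronectin) and MMP9 (a secreted gelatinase) higher and ID2 lower. FN1 had 443 and 324 CPM there, against 17.0 and 11.6 CPM in Control (4.8 ± 1.69, DESeq2 adjusted p = 0.0322, edgeR 0.198). MMP9 had 2.27 and 5.40 CPM, against 0.00765 and 0.216 CPM, or 1 and 11 counts, in Control. Its fitted value of 5.39 ± 1.79 (DESeq2 adjusted p = 0.0357) thus rests on few Control counts. ID2 had 3.23 and 1.36 CPM, against 17.6 and 9.07 CPM in Control (-2.52 ± 0.95, DESeq2 adjusted p = 0.0444). CTGF, a matricellular protein, had 10.9 and 0.532 CPM in TRA2B-OE, against 0.291 and 0.392 CPM in Control (3.58 ± 1.05, DESeq2 adjusted p = 0.00787, edgeR 0.268). Its high TRA2B-OE library was the lane-summed one, as for TGFB2. The other targets with the highest CPM, VIM (vimentin) and COL7A1 (collagen VII), averaged 1270 and 993 CPM and passed in no comparison.

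**Figure D4:**
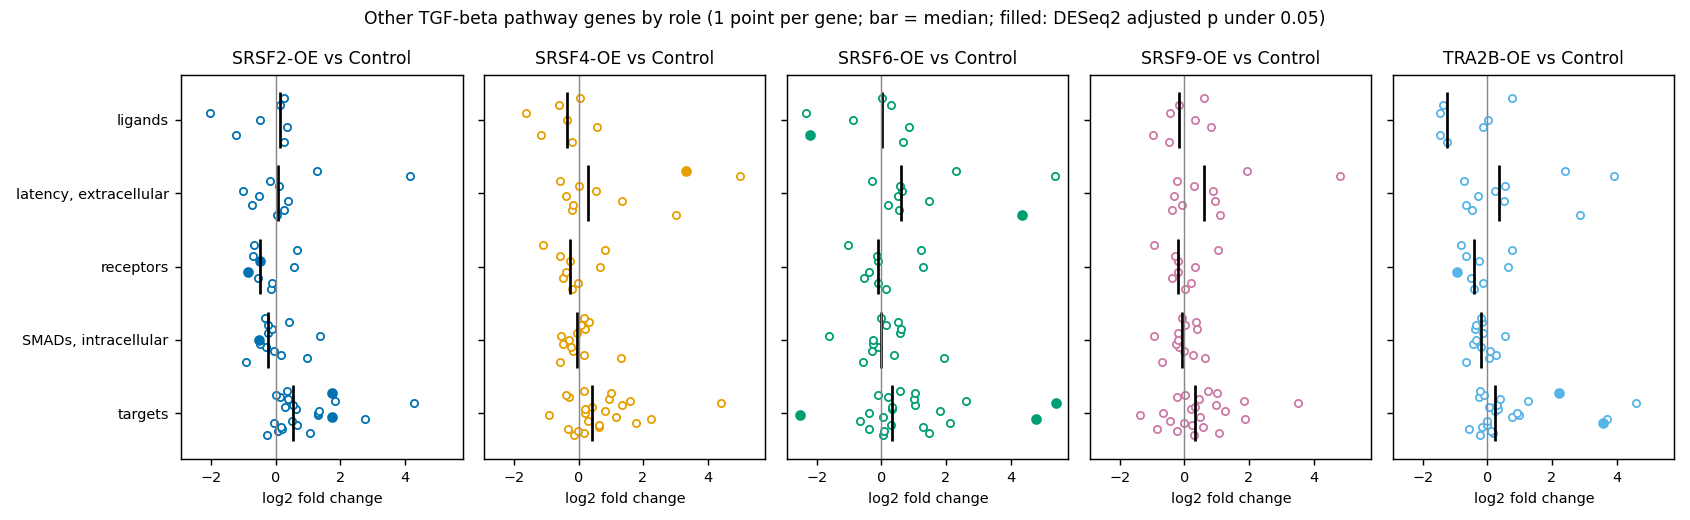
Fitted log2 fold change against Control of the 62 other pathway genes, 1 point per gene, in rows by role and 1 panel per comparison; black bars are medians and filled points had a DESeq2 adjusted p under 0.05. The medians of the targets and of the latency genes lie right of 0 in all 5 panels. Those of the receptors and of the SMAD genes lie left of 0, the SMAD median in SRSF6-OE only just (-0.00106). The ligand medians fall on both sides.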

How the data were processed

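RNA from MCF-10A structures grown in Matrigel was sequenced as stranded mRNA libraries with paired reads of 101 bases, per the labels' protocols. The authors deposited raw counts per gene for 18 samples, which summed to between 36426438 and 70515965 per sample. The submitters' processing notes name featureCounts, Subread, STAR 2.5.1b, Trimmomatic 0.36 and GRCh37, with no role for any. The sources used here do not say if strand was used in counting, or if pairs or single reads were counted, so genes that overlap can share or lose reads.

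Gene names came from GENCODE 29 by gene ID: 55910 of the 60252 IDs were named. Lanes of 1 library ID were summed, because 2 runs of the same library do not replicate it. Counts of the 14 libraries were fitted in edgeR 4.0.16 (R 4.3.3) by quasi-likelihood with group and label set as terms, TMM normalisation, filterByExpr with a minimum count of 10, and Benjamini-Hochberg adjustment over the 21326 genes tested (threshold 0.05, 7 residual degrees of freedom). The standard error of a log2 fold change is its size divided by the square root of F. CPM uses the TMM library size, and RPKM divides it by the union of exons in GENCODE 29. Within-label-set ratios are log2 ratios of CPM with no prior, and centred log2 CPM uses a prior count of 2. DESeq2 1.42.0 and limma-voom (limma 3.58.1) were alternatives, as were other filters, terms and sets of libraries. The fits were tested on simulated data. The text names the 10 members, other pathway genes called by edgeR or DESeq2 in a comparison with Control or with the 2 highest mean CPM in their role, and the 2 nearest genes of each member. The members and lists were chosen with earlier results of these data known. Upstream windows came from RefSeq (GRCh38.p14), where all 10 members matched with 26 windows. Their coordinates are of that build, not the one the authors named.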

Additional observations from a re-analysis of the deposited data

How the results depend on the processing

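Counts of genes called by edgeR were 0 in SRSF2-OE, 0 in SRSF4-OE, 1 in SRSF6-OE, 0 in SRSF9-OE, 2 in TRA2B-OE and 9 in the F test, and they changed with the setting. In the same order they were 1303, 3499, 4030, 5, 2949 and 3692 with the 18 samples as separate replicates (members called: 3 in SRSF4-OE, 4 in SRSF6-OE, 2 in TRA2B-OE and 2 in the F test), a setting that counts lanes as replicates. They were 506, 575, 1238, 15, 452 and 1581 in DESeq2 (members: 1 in SRSF6-OE, 2 in TRA2B-OE, 1 in the F test), and 2, 3, 5, 2, 12 and 50 with no filter on low counts. limma-voom called 19 in SRSF6-OE and 5 in TRA2B-OE. Numeric-labelled libraries only gave 0 in TRA2B-OE and 4 in the F test. With no label set term the counts were 1 in SRSF9-OE and 0 in TRA2B-OE. Fitting only the 2 groups compared gave 2504 in SRSF4-OE (4 members), 156 in SRSF6-OE, 1 in SRSF9-OE and 0 in TRA2B-OE. Such fits hold few libraries and leave few residual degrees of freedom. Without SRSF2-OE replicate 1 and TRA2B-OE replicate 3 the counts were 46 in SRSF2-OE, 88 in SRSF4-OE, 48 in SRSF6-OE and 75 in the F test.

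Whether the replicate numbers pair the libraries could not be settled. Deviations of same-numbered libraries from their group means correlated at -0.42 to 0.49 over 31 pairs, 16 of them over 0.1. Of 14 libraries, 6 correlated best with their own number. In groups of 2 libraries the deviations mirror each other, so pairs repeat values, and there the replicate number moves with the label set. With the replicate number as a block, genes called were 0 in SRSF6-OE, 0 in TRA2B-OE and 4 in the F test, and the signs of INHBA (-1.27) and SMAD3 (0.054) in SRSF2-OE and of TGFB2 (-0.64) and SMAD3 (0.062) in SRSF9-OE turned.

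Leaving out 1 library at a time, genes called ranged from 0 to 69 in SRSF2-OE (69 without SRSF2-OE replicate 1), 0 to 24 in SRSF4-OE (24 without the same library), 0 to 48 in SRSF6-OE (48 without the lane-summed TRA2B-OE library), 0 to 2 in SRSF9-OE (2 without SRSF9-OE replicate 1), 0 to 14 in TRA2B-OE (14 without TRA2B-OE replicate 3) and 0 to 47 in the F test (47 without SRSF2-OE replicate 1). Members called ranged from 0 to 1 in TRA2B-OE, the 1 being TGFB2 without TRA2B-OE replicate 3 (4.74, edgeR adjusted p = 0.0369), and stayed at 0 elsewhere. A group left with 1 library is assumed to vary like the others.

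Of 1200 member log2 fold changes under 24 alternatives a comparison, 1145 kept their direction and side of the threshold, 17 passed it newly and 38 turned sign. The main edgeR fit called no member, so these 38 could fall only in values it had not called. Newly past the threshold, with edgeR adjusted p, were TGFB2 (0.0154), INHBA (0.00417), LTBP1 (0.0366) and TGFBR2 (0.0475) in SRSF4-OE with only the 2 groups compared. That fit had 1 library per label set in each group, so almost no residual degrees of freedom, and it called 2504 genes. INHBA had a log2 fold change of 1.80 both there and in the main fit, where its edgeR adjusted p was 0.62. With 18 samples as replicates, those newly past the threshold were LTBP1, TGFBR2 and SMAD3 in SRSF4-OE, TGFB1, TGFB2, SMAD7 and TGFBI in SRSF6-OE, and TGFB2 and TGFBI in TRA2B-OE (0.0061 to 0.0413). The others were the 3 DESeq2 calls and TGFB2 without TRA2B-OE replicate 3. Those that turned when 1 library was left out had these ranges: in SRSF2-OE, INHBA -1.73 to 1.81 (negative without replicate 2) and SMAD3 -0.24 to 0.18 (positive without Control replicate 3). In SRSF6-OE, TGFBR1 ran from -0.17 to 0.74 and SKIL from -0.14 to 1.07 (negative without replicate 3). In SRSF9-OE, TGFB2 ran from -0.0021 to 1.12 (negative without TRA2B-OE replicate 3), SMAD3 from -0.28 to 0.21 (positive without Control replicate 3 or SRSF9-OE replicate 2) and SMAD7 from -0.023 to 0.28 (negative without the lane-summed Control library or SRSF9-OE replicate 3). In TRA2B-OE the ranges were -0.13 to 4.74 for TGFB2, -4.06 to 2.08 for INHBA and -0.16 to 0.53 for TGFBR2 (negative without the lane-summed TRA2B-OE library), -0.35 to 0.94 for LTBP1 (negative without that library or the lane-summed Control), -0.23 to 0.18 for SMAD3 (positive without either replicate 3 library), -0.017 to 0.28 for SMAD7 (negative without the lane-summed Control) and -0.70 to 0.21 for SKIL (positive without TRA2B-OE replicate 3).

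Other sign changes were as follows. In numeric-labelled libraries only, SMAD7 was -0.028 in SRSF9-OE, and in TRA2B-OE TGFB2 was -0.016, INHBA -3.41, LTBP1 -0.64, TGFBR2 -0.26 and SMAD7 -0.11. With no label set term, TGFB2 was -0.23 in SRSF2-OE and -1.10 in SRSF9-OE. In limma-voom INHBA was -0.23 in SRSF2-OE and -0.28 in TRA2B-OE. With only the 2 groups compared, SMAD7 was -0.026 in SRSF9-OE and INHBA -0.81 in TRA2B-OE. Without SRSF2-OE replicate 1 and TRA2B-OE replicate 3, TGFB2 was -0.0051 in SRSF9-OE, and SMAD3 0.069 and SKIL 0.20 in TRA2B-OE. With 18 samples as replicates SMAD3 was 0.04 in TRA2B-OE. The cause of these changes was not tested. Precision is limited by 2 or 3 libraries a group, and for TGFB2 also by counts of 9 to 38 in SRSF2-OE and SRSF9-OE.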

Other observations

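Of the 62 other pathway genes tested, PMEPA1 was looked at more closely after its values were seen. PMEPA1, a negative regulator that is itself induced by the pathway, had 33.4, 172 and 52.9 CPM in SRSF2-OE, 78.3 and 107 CPM in SRSF4-OE and 66.8 and 244 CPM in SRSF6-OE. It had 52.5, 62.7 and 88.4 CPM in SRSF9-OE and 49.4 and 21.6 CPM in TRA2B-OE, against 27.9 and 48.4 CPM in Control, with the lane-summed library of each pair first. All libraries of SRSF4-OE, SRSF6-OE and SRSF9-OE were above Control, beside 25.3%, 22.8% and 16.5% of all genes in these groups. PMEPA1 passed in no comparison in edgeR (lowest adjusted p = 0.228) or DESeq2 (0.0693, both SRSF6-OE).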
